A study of Mus musculus with 16 samples.

Results

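Cadherin and protocadherin genes were followed in GABAergic cells of the newborn mouse brain. The genes were taken by name alone, as those whose name on the array is Cdh followed by a number or begins with Pcdh. They came to 63 of the 29273 genes named on the array and had 100 of its 41174 probes. Of these 63, 21 were cadherins and 42 were protocadherins, 31 of them from the 3 tandem clusters (3 alpha, 22 beta and 6 gamma genes) and 11 from outside the clusters. Each gene was read from its brightest probe, and 62 passed a filter on dim signals, Cdh17 being the exception. On all 16 arrays, 52 of the 63 were well above background in both channels. The name Pcdh21 is that of the array, and the gene is now called Cdhr1.

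All sorted cells came from GAD67-eGFP mice on a C57Bl/6 background at postnatal day 1, whose green fluorescent protein labels the cells making glutamate decarboxylase 67, the main enzyme of GABA synthesis. Fluorescent cells were collected by cell sorting from whole brain (4 arrays, with 4 mice given for this dissection) and from 4 dissected regions, namely cortex, cerebellum, striatum and olfactory bulb (3 arrays each, with 6 mice given for the regional dissections). Each array set amplified cDNA of 1 sorted sample, labelled with Cy5, against a common total brain reference from 4 mice, labelled with Cy3, without a dye swap. A value is the log2 ratio of sorted cells to reference, so that 1 stands for a 2-fold higher signal in the sorted cells. Whether samples of different regions shared animals is not stated, so p-values measure the spread between these samples, which may be partly technical. Tests against the reference use the mean ratio of a group, so they leave out the spread of the reference itself. Without a dye swap, these ratios are also open to dye bias. Because the reference is a mixture of all brain cells, fewer cells of a type and less RNA per cell cannot be told apart.

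Cadherins are calcium-dependent adhesion molecules with repeated extracellular domains. Classical cadherins, of types I and II, bind mostly their own kind on the neighbouring cell and attach through catenins to the actin cytoskeleton, and combinations of type II cadherins are known for marking brain nuclei and layers and for sorting neurons into circuits. Protocadherins form the other large branch of the superfamily. The clustered ones are known for being switched on in a different combination in each neuron, through a separate promoter for each variable exon, and for letting branches of one neuron recognise and avoid each other. The delta protocadherins outside the clusters have more regional patterns and signal to the actin cytoskeleton. Gamma protocadherins are also known for supporting the survival of cortical interneurons after birth.

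Between 78.1% and 96.6% of the spots on an array had a sorted signal well above background, and for the reference signal this share was 72.1% to 90.7%. Arrays of 1 group correlated across genes, which are not independent replicates, at Pearson's r of 0.936 to 0.992, arrays of different regions at 0.776 to 0.927, and whole brain arrays with regional arrays at 0.618 to 0.748. The 4 whole brain arrays were scanned on another day than the 12 regional arrays, so whole brain and scan day cannot be told apart. All 8 markers of GABAergic neurons were called higher than the reference in olfactory bulb, cortex and striatum. In cerebellum 6 of 8 were called higher and 1 lower, and in whole brain 6 higher and 2 lower. Gad1, which encodes glutamate decarboxylase 67 itself, was lower than the reference in whole brain (-1.51) and higher in each region (0.79 to 0.91). Markers of glutamatergic neurons were called lower for 6 of 6 genes in olfactory bulb, cortex and striatum, 5 in whole brain and 4 in cerebellum, where the other 2 were called higher.

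Against the reference, the family split about evenly into genes higher and genes lower in the sorted cells. A gene was called when its adjusted p over all 27841 genes tested was under 0.05. In whole brain 55 of 62 were called, 28 higher and 27 lower, where 79.6% of all genes tested were called (44.9% higher and 34.7% lower). In olfactory bulb 48 were called, 22 higher and 26 lower, against 67.9% of all genes (36.7% and 31.2%). In cortex 44 were called, 21 higher and 23 lower, against 69.4% (37.9% and 31.5%). In striatum 48 were called, 20 higher and 28 lower, against 67.5% (36.1% and 31.4%). In cerebellum 54 were called, 26 higher and 28 lower, against 75.9% (42.7% and 33.2%). With arrays centred on their median in place of loess, the splits of higher to lower became 30 to 23 in olfactory bulb, 28 to 19 in cortex, 27 to 20 in striatum, 29 to 22 in cerebellum and 33 to 25 in whole brain. The median log2 ratio of the 62 lay between -0.13 (striatum) and 0.03 (cerebellum), that of all genes between 0.03 and 0.09.

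**Figure D1:**
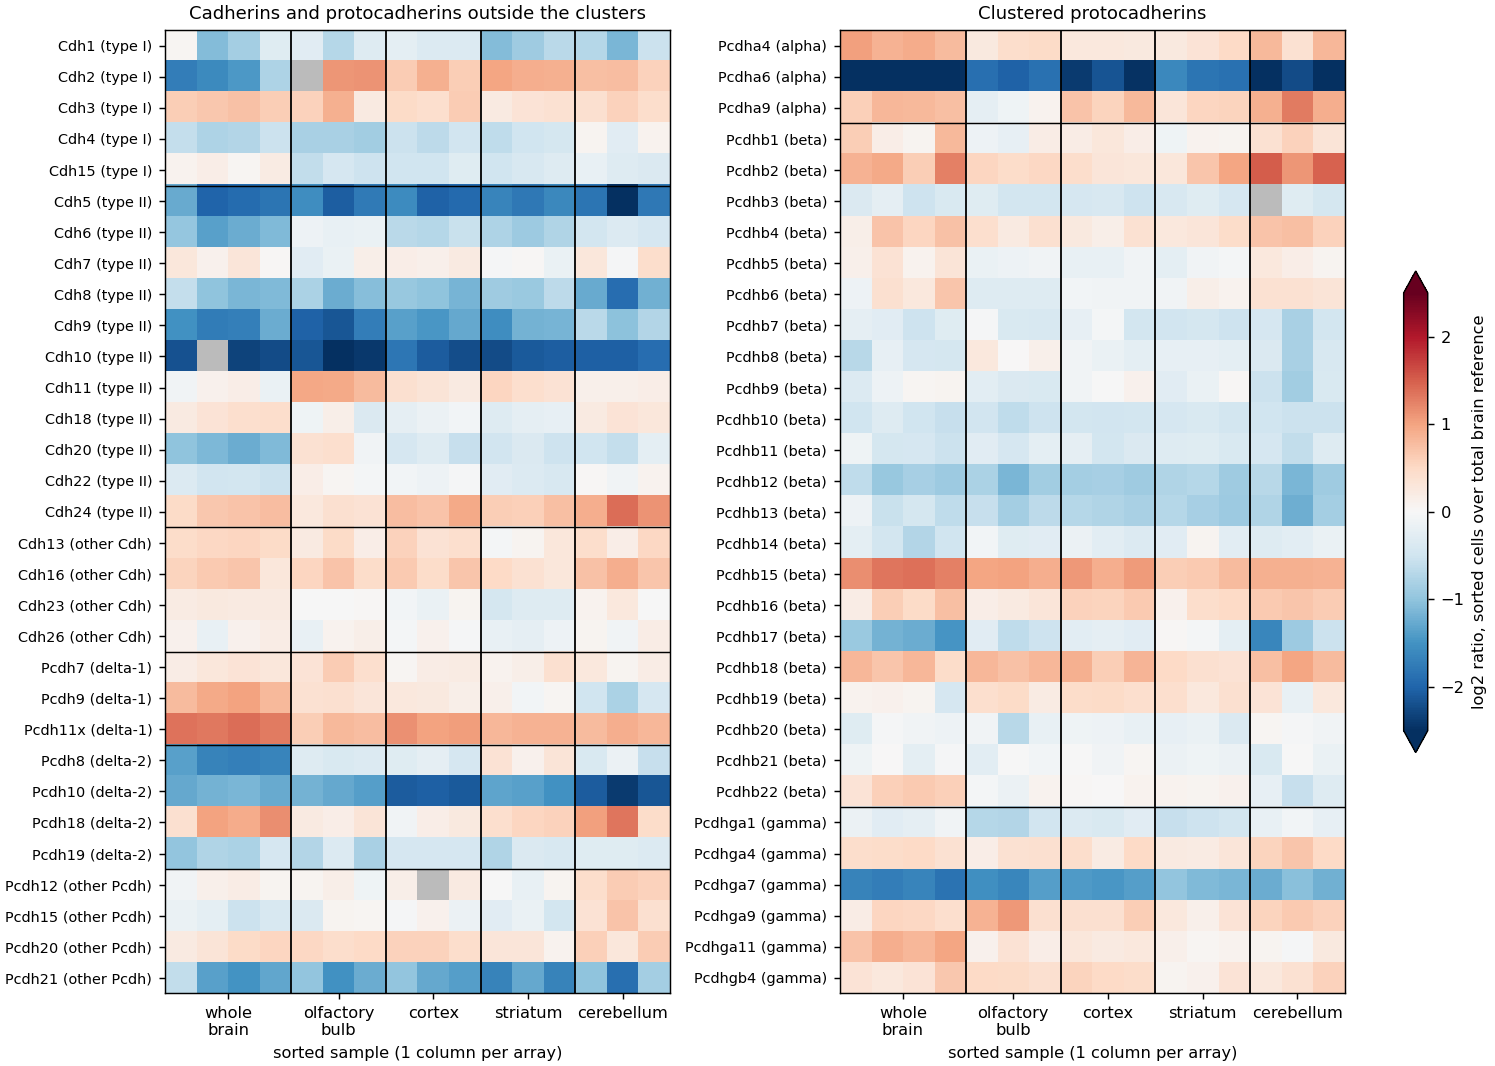
Log2 ratio of sorted cells over the total brain reference for the 62 genes that passed the filter (rows, by role) on each of the 16 arrays (columns, by sorted sample), with red for higher and blue for lower in the sorted cells and grey for 4 values whose spot carried an outlier flag. Cdh5, Cdh9, Cdh10, Pcdh10, Pcdha6 and Pcdhga7 are blue on every array with a value, while Cdh2 is blue in whole brain and red in the regions.

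Taking the 4 dissected regions together, 14 of the 62 were called higher than the reference in every region, where 24.7% of all genes tested were, and 18 were called lower in every region, where 21.2% were. The 14 higher genes were Cdh2, Cdh3, Cdh16, Cdh24, Pcdh11x, Pcdh20, Pcdha4, Pcdhb2, Pcdhb4, Pcdhb15, Pcdhb16, Pcdhb18, Pcdhga4 and Pcdhga9. The 18 lower genes included the type II cadherins Cdh5, Cdh6, Cdh8, Cdh9 and Cdh10. By at least 2-fold in every region, 6 genes were lower (Cdh5, Cdh10, Pcdh10, Pcdh21, Pcdha6 and Pcdhga7), against 3.98% of all genes, and none of the 62 was higher, against 2.22%. Called higher in at least 1 region and lower in at least 1 other were 7 genes, against 5.53% of all genes.

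Of the 5 type I classical cadherins, Cdh2 and Cdh3 were above the reference in every region, and Cdh1, Cdh4 and Cdh15 were below it or not called. Cdh2, the N-cadherin of neural tissue, was singled out after its values were seen. Its log2 ratio was -1.74, -1.58, -1.43 and -0.77 on the whole brain arrays. In the regions it was 1.1 and 1.12 on the 2 olfactory bulb arrays with a value, 0.98, 0.90 and 0.89 in striatum, 0.64, 0.88 and 0.62 in cortex, and 0.75, 0.77 and 0.58 in cerebellum. Every regional array was above 0 and every whole brain array below it, so the groups did not overlap. Whole brain lay 4.73-fold below the mean of the 4 regions (-2.24 on the log2 scale, SE 0.12, adjusted p = 6.25e-12), and the 4 regions were not called different from each other (adjusted p = 0.172). They were called with median centring (adjusted p = 0.00670) and with arrays scaled to each other (adjusted p = 0.0267). A dimmer Cdh2 probe, drawn from another cDNA, gave 1.09 in whole brain and 0.32 to 0.69 in the regions, so the low whole brain value was seen on 1 of these probes.

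Cdh3, the P-cadherin, was higher than the reference in every group, at 0.66 ± 0.05 in whole brain (SD, n = 4) and 0.31 to 0.56 in the regions. Cdh4, the R-cadherin of retina and forebrain, was lower in whole brain (-0.66), olfactory bulb (-0.84), cortex (-0.56) and striatum (-0.53), and at -0.04 ± 0.21 (SD, n = 3) in cerebellum it was not called. Cerebellum exceeded olfactory bulb in Cdh4 by 0.80 on the log2 scale (adjusted p = 8.89e-06), and all 3 Cdh4 probes had a higher mean ratio in cerebellum than in the other regions. Cdh1, the epithelial E-cadherin, was lower in whole brain (-0.55) and in 3 regions (-0.44 to -0.88), and at -0.31 in cortex it was not called. Cdh15, the M-cadherin of muscle, which is also known from cerebellar granule cells, was 0.13 in whole brain and -0.51 to -0.29 in the regions.

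The type II classical cadherins were called lower more often than higher, under each scaling tried except in olfactory bulb under median centring, where 6 were higher and 4 lower. Of 11 genes, 7 were lower and 3 higher in whole brain, 5 lower and 3 higher in olfactory bulb, 6 lower and 2 higher in cortex, 8 lower and 2 higher in striatum, and 6 lower and 3 higher in cerebellum. Of all genes tested, 31.2% to 34.7% were called lower in the 5 groups, and 36.1% to 44.9% higher. Cdh10, which is known from limbic and cortical circuits, had the lowest mean ratio of the type II genes in every group but cerebellum. Its log2 ratio was -2.18, -2.32 and -2.24 on the 3 whole brain arrays with a value. It was -2.13, -2.51 and -2.41 in olfactory bulb, -2.23, -2.09 and -2.06 in striatum, -1.82, -2.08 and -2.21 in cortex, and -2.03, -2.04 and -1.91 in cerebellum. Every cerebellar array was above every olfactory bulb, striatal and whole brain array, and cerebellum overlapped cortex. The F test called Cdh10 among regions (adjusted p = 0.0421), and olfactory bulb was 1.28-fold below cerebellum (adjusted p = 0.0164). Every group lay below the reference, by 3.98-fold in cerebellum to 5.09-fold in olfactory bulb (adjusted p = 8.21e-14 and 7.65e-15).

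Cdh9, a close relative of Cdh10 known for specifying hippocampal mossy fibre synapses, was also lower than the reference in every group but varied more between regions. Its log2 ratio was -1.52, -1.75, -1.70 and -1.25 in whole brain. It was -2.03, -2.14 and -1.73 in olfactory bulb, -1.56, -1.17 and -1.15 in striatum, -1.37, -1.46 and -1.29 in cortex, and -0.67, -1.03 and -0.74 in cerebellum. All 3 olfactory bulb arrays were below every other regional array, all 3 cerebellar arrays were above every other one, and cortex and striatum overlapped between them. Olfactory bulb was 2.22-fold lower than cerebellum (-1.15 on the log2 scale, SE 0.14, adjusted p = 4.99e-06), 1.59-fold lower than striatum (adjusted p = 0.00188) and 1.51-fold lower than cortex (adjusted p = 0.00793). Cortex and striatum in turn were 1.47-fold and 1.40-fold lower than cerebellum (adjusted p = 0.00758 and 0.0121). Of the difference between olfactory bulb and cerebellum, -0.45 lay in the sorted channel and 0.70 in the reference channel, which holds the same reference cDNA on all arrays. The sorted and reference parts were -0.17 and 0.50 for olfactory bulb minus striatum, and -0.24 and 0.36 for olfactory bulb minus cortex. They were -0.21 and 0.34 for cortex minus cerebellum, and -0.28 and 0.20 for striatum minus cerebellum.

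Cdh9 and Cdh10 were among the 3 type II genes with the lowest ratios in every group but cerebellum, where Cdh8 was below Cdh9, and Cdh24 had the highest ratio of the 11 in cortex, striatum and cerebellum. Their promoters are shown to set the sequence context of these opposite members side by side, with that of Pcdh10, the lowest delta protocadherin in each region. The sequences are the 250 bases before the RefSeq gene start (GRCm38.p6), at chr15:16728665-16728914 on the plus strand for Cdh9, chr15:18820079-18820328 on the plus strand for Cdh10, chr14:54641365-54641614 on the minus strand for Cdh24 and chr3:45378148-45378397 on the plus strand for Pcdh10. Capitals mark CG dinucleotides, the sites of DNA methylation.
Cdh9: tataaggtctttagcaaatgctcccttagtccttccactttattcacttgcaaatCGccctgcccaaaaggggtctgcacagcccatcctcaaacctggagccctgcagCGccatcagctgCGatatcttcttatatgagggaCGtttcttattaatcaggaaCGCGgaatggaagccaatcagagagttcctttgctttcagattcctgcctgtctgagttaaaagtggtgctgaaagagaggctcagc
Cdh10: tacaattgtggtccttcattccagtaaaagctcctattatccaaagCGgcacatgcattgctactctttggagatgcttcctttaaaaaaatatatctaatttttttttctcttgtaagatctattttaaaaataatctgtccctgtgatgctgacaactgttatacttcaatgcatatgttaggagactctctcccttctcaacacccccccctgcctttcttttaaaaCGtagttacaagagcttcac
Cdh24: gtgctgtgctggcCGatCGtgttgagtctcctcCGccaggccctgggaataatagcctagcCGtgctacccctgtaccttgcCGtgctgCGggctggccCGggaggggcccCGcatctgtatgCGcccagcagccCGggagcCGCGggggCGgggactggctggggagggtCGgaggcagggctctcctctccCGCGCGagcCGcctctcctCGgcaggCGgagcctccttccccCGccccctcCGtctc
Pcdh10: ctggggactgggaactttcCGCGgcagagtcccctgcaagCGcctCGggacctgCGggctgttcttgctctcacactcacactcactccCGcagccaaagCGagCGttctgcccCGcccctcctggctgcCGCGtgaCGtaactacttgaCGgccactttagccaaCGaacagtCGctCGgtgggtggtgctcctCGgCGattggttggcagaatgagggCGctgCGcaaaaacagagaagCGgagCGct
The Cdh10 promoter held 2 CG dinucleotides at 36.8% G and C, that of Cdh9 6 at 48%, and those of Cdh24 and Pcdh10 22 each at 72.8% and 63.2%. Among the 21 genes of the family matched by name to a promoter, the median G and C content was 58%, against 52% over all 27025 promoters. The letters TAATTA, a core bound by homeodomain proteins such as Dlx factors and the same on both strands, were found in none of the 21 windows and in 4.90% of all windows. The letters CAGCTG, an E box form bound by basic helix-loop-helix proteins and the same on both strands, were found in 1 of the 21, that of Cdh9, and in 12.8% of all windows.

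Cdh5 is the VE-cadherin of endothelial cells, which line blood vessels. On the whole brain arrays its log2 ratio was -1.26, -1.99, -1.92 and -1.82. It was -1.55, -2.07 and -1.76 in olfactory bulb, -1.65, -1.78 and -1.62 in striatum, -1.58, -2.02 and -1.94 in cortex, and -1.82, -2.64 and -1.80 in cerebellum. All 3 striatal arrays were above every cerebellar array, and the other groups overlapped. The regions were not called different (adjusted p = 0.335), although they were with the scanner software's ratios (adjusted p = 0.000647). Each region was 3.21-fold to 4.25-fold below the reference. The sorted signal was well above background on 13 of the 16 arrays, being 3 of 4 in whole brain, 2 of 3 in olfactory bulb and 2 of 3 in cortex. Among 9 other markers of endothelial and mural cells, 7 were lower and 2 higher than the reference in whole brain and in cerebellum, and 6 lower and 2 higher in each of the other regions, with a list median of -0.88 to -0.39, and their part in the Cdh5 result was not tested. The second Cdh5 probe gave -0.90 to -0.09.

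The remaining type II genes included Cdh6 and Cdh8, both known for marking cortical areas and for wiring of sensory neurons. Cdh6 was -1.17 ± 0.17 in whole brain (SD, n = 4) and -0.16, -0.65, -0.81 and -0.41 in olfactory bulb, cortex, striatum and cerebellum. It was 1.57-fold higher in olfactory bulb than in striatum (adjusted p = 5.88e-05), and with median centring its olfactory bulb ratio turned to 0.28. Cdh8 was -0.96 in whole brain and lowest in cerebellum, at -1.45 ± 0.39 (SD, n = 3), against -0.82 ± 0.15 in striatum. Cdh20, a cadherin known from neural crest and brain nuclei, was 0.24 ± 0.29 in olfactory bulb and -0.45 to -0.44 in the other regions, with -1.12 in whole brain. A second Cdh20 probe was above the reference in every group (0.51 to 0.80), and with the mean of probes Cdh20 turned to 0.13 in cortex, 0.03 in striatum and 0.16 in cerebellum. Cdh11, known from mesenchyme and developing forebrain, was 0.90 ± 0.09 in olfactory bulb, above striatum (0.44), cortex (0.32) and cerebellum (0.14). Olfactory bulb exceeded cerebellum in Cdh11 by 1.70-fold (adjusted p = 6.27e-06), although a second bright Cdh11 probe lay between -2.85 and -1.02 in the 5 groups. Cdh24, a less studied type II cadherin, was 0.34 ± 0.07 in olfactory bulb, 0.65 ± 0.08 in striatum, 0.81 ± 0.11 in cortex and 1.15 ± 0.25 in cerebellum (SD, n = 3 each). Cerebellum exceeded olfactory bulb in Cdh24 by 1.74-fold (adjusted p = 1.75e-05), while a second, dimmer Cdh24 probe gave 0.01 in cerebellum and 0.21 in olfactory bulb. Cdh18 was 0.36 in whole brain, 0.28 in cerebellum and -0.25 in striatum, and with median centring the striatal ratio turned to 0.09.

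Of the 5 other cadherins, 4 were tested. Cdh16, known from kidney, was higher than the reference in every group (0.39 to 0.78). Cdh13, the T-cadherin that lacks a cytoplasmic domain, was higher in whole brain (0.50), cortex (0.46), cerebellum (0.37) and olfactory bulb (0.29), and at 0.10 in striatum it was not called. Cdh23, which forms part of the tip link of hair cells, was -0.36 ± 0.06 in striatum, 0.12 ± 0.14 in cerebellum and near 0 in olfactory bulb and cortex. A second Cdh23 probe gave 0.30 in striatum, 0.04 in olfactory bulb and -0.06 in cortex, and with the mean of probes striatum was at -0.03. Cdh26 was called in striatum alone (-0.18). Cdh17, of intestine and liver, had a sorted signal well above background on 0 of 16 arrays and a reference signal above it on 2.

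The delta-2 protocadherins held the gene of the family with the smallest adjusted p among regions, Pcdh10, also named OL-protocadherin, which recruits the WAVE actin regulatory complex and is known from striatal and thalamocortical axon growth. Its log2 ratio was -1.29, -1.19, -1.14 and -1.25 in whole brain. It was -1.18, -1.29 and -1.38 in olfactory bulb, -1.32, -1.36 and -1.52 in striatum, -2.09, -2.03 and -2.11 in cortex, and -2.08, -2.39 and -2.13 in cerebellum. The regions formed 2 levels that did not overlap, with olfactory bulb and striatum above cortex and cerebellum. Olfactory bulb exceeded cortex by 1.73-fold (adjusted p = 1.72e-05) and cerebellum by 1.89-fold (adjusted p = 5.26e-07), and striatum exceeded the same pair by 1.60-fold and 1.74-fold (adjusted p = 0.000124 and 3.36e-06). Olfactory bulb was not called different from striatum, nor cortex from cerebellum. A second Pcdh10 probe, drawn from another transcript, was above the reference in every group, at 1.36 in whole brain, 0.87 in olfactory bulb and in cortex, 0.64 in striatum and 0.25 in cerebellum.

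Pcdh8, also called arcadlin, which takes N-cadherin from the surface of active neurons, was likewise singled out after its values were seen. Its log2 ratio was -1.36, -1.66, -1.72 and -1.66 in whole brain. It was -0.32, -0.38 and -0.34 in olfactory bulb, 0.36, 0.11 and 0.32 in striatum, -0.31, -0.22 and -0.42 in cortex, and -0.38, -0.14 and -0.59 in cerebellum. All 3 striatal arrays were above 0 and above every other regional array, while the 4 whole brain arrays were the lowest of the 16. Striatum exceeded cerebellum by 1.55-fold, olfactory bulb by 1.53-fold and cortex by 1.5-fold (adjusted p = 0.000293, 0.000633 and 0.00210), and with median centring the olfactory bulb ratio turned to 0.15. Whole brain was 2.65-fold below the mean of the regions (adjusted p = 7.43e-12). The other Pcdh8 probe did not show this pattern, with -0.11 in striatum and in cerebellum, -0.28 in cortex, -0.38 in olfactory bulb and 0.10 in whole brain.

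Pcdh18 was 0.94 ± 0.45 in cerebellum, 0.51 ± 0.08 in striatum, 0.23 ± 0.08 in olfactory bulb and 0.10 ± 0.17 in cortex (SD, n = 3 each), and cerebellum exceeded cortex by 1.79-fold (adjusted p = 0.00229). Pcdh19, an X-linked epilepsy gene, was lower than the reference in every group (-0.74 to -0.32), and its other probe was lower still (-3.17 to -2.63). Of the 3 delta-1 protocadherins, Pcdh11x was higher than the reference on every array, at 1.36, 1.33, 1.41 and 1.30 in whole brain and between 0.61 and 1.14 on the regional arrays. Its other probes, which were dim, had group means below the reference (-0.47 to -0.06). Cortex exceeded olfactory bulb in Pcdh11x by 1.26-fold (adjusted p = 0.00798). Pcdh9 descended from 0.37 ± 0.06 in olfactory bulb through 0.21 ± 0.06 in cortex and 0.04 ± 0.10 in striatum to -0.57 ± 0.20 in cerebellum (SD, n = 3 each), with 0.89 in whole brain. Cerebellum lay 1.91-fold below olfactory bulb, 1.73-fold below cortex and 1.53-fold below striatum (adjusted p = 8.74e-07, 1.23e-05 and 0.000124), while olfactory bulb and cortex did not differ beyond the threshold. All 4 Pcdh9 probes had their lowest regional mean in cerebellum, though 2 of them were below the reference in every group. Pcdh7 was above the reference in 3 regions and in whole brain (0.17 to 0.46), and at 0.15 in cortex it was not called. A second Pcdh7 probe, nearly as bright, gave -0.18 in cerebellum and 0.01 to 0.04 in the other groups. With the mean of probes the cerebellar Pcdh7 ratio turned to -0.003.

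Pcdh21, known from photoreceptors and from the mitral and tufted cells of the olfactory bulb, had a log2 ratio of -0.61, -1.36, -1.50 and -1.30 in whole brain. It was -0.99, -1.52 and -1.24 in olfactory bulb, -1.66, -1.27 and -1.67 in striatum, -0.99, -1.28 and -1.37 in cortex, and -1.01, -1.89 and -0.85 in cerebellum. The groups overlapped and the regions were not called different (adjusted p = 0.548), each being 2.32-fold to 2.90-fold below the reference, although leaving out cerebellar array 2 brought the cerebellar value to -0.93. Pcdh15, the partner of Cdh23 in the tip link, was 0.50 ± 0.19 in cerebellum. Its signal was not well above background on any sorted array of olfactory bulb or cortex, which gives only a bound there, so no fold is given. Cerebellum was called higher than both (adjusted p = 0.00181 and 0.00728). Pcdh12, known from endothelium, was 0.55 ± 0.11 in cerebellum and not called in any other group. Pcdh20 was higher than the reference in every group (0.23 to 0.53).

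**Figure D2:**
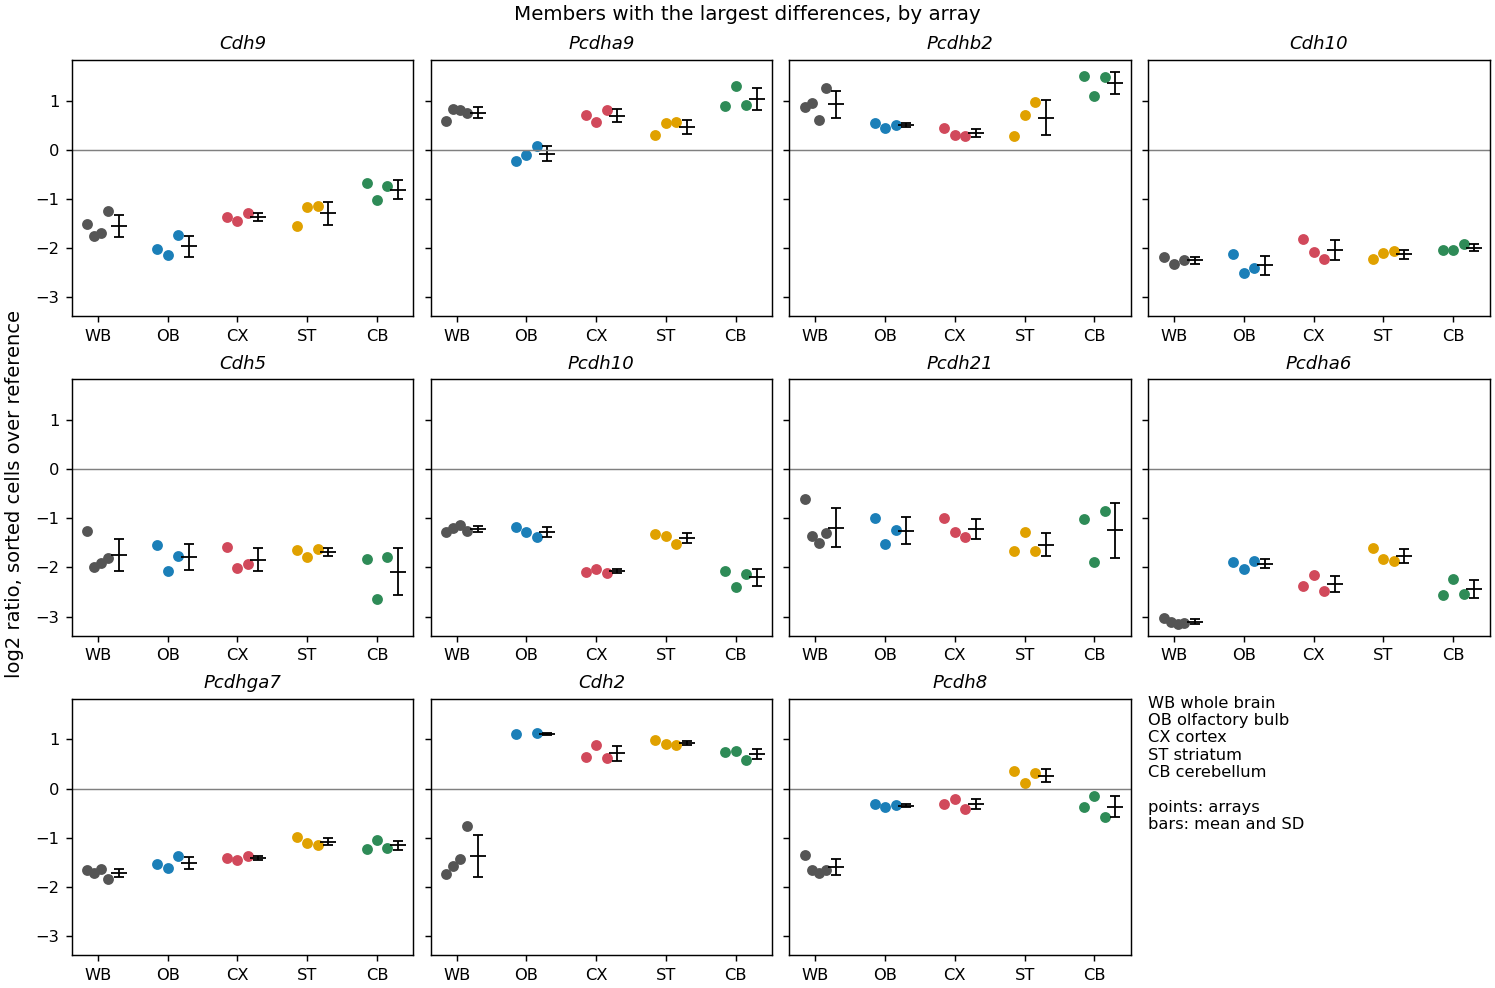
Log2 ratio of sorted cells over reference on each array (points) with group mean and SD (bars) for 11 genes, in whole brain (n = 4) and the 4 regions (n = 3, or 2 for Cdh2 in olfactory bulb, with 3 for Cdh10 in whole brain). Cdh9 runs from -1.96 in olfactory bulb to -0.81 in cerebellum, Pcdh10 separates olfactory bulb and striatum from cortex and cerebellum, and Cdh2 and Pcdh8 have their lowest values in whole brain.

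The clustered protocadherins lie in 3 tandem arrays on one chromosome. Each alpha and gamma transcript joins its own variable exon to constant exons shared within the cluster, while each beta gene is a single exon. Of the 31 measured, 15 were higher and 12 lower than the reference in whole brain, 11 and 14 in olfactory bulb, 10 and 11 in striatum, 12 and 11 in cortex, and 13 and 15 in cerebellum. The shares of all genes called higher and lower were 44.9% and 34.7% in whole brain, 36.7% and 31.2% in olfactory bulb, 36.1% and 31.4% in striatum, 37.9% and 31.5% in cortex, and 42.7% and 33.2% in cerebellum. Whether a probe of an alpha or gamma gene lies in its own exon or in the shared exons was not tested, so these probes may read more than 1 gene of their cluster.

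Pcdha9, an alpha gene, had a log2 ratio of 0.59, 0.83, 0.82 and 0.75 in whole brain. It was -0.23, -0.10 and 0.08 in olfactory bulb, 0.29, 0.53 and 0.56 in striatum, 0.71, 0.56 and 0.81 in cortex, and 0.89, 1.30 and 0.91 in cerebellum. Olfactory bulb was the lowest region and did not overlap any other, and cerebellum was the highest and did not overlap any other. Olfactory bulb was 2.17-fold below cerebellum (-1.12 on the log2 scale, SE 0.12, adjusted p = 8.18e-07), 1.72-fold below cortex (adjusted p = 0.000271) and 1.46-fold below striatum (adjusted p = 0.00220). With the mean of the 3 Pcdha9 probes in place of the brightest, the difference from cerebellum was -0.05 (adjusted p = 0.573). The other 2 probes ran from -1.83 to -0.75 and from -0.01 to 0.39 over the 5 groups.

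Pcdha6 had a log2 ratio of -3.03, -3.10, -3.14 and -3.12 in whole brain. It was -1.89, -2.03 and -1.86 in olfactory bulb, -1.60, -1.82 and -1.87 in striatum, -2.38, -2.15 and -2.47 in cortex, and -2.55, -2.23 and -2.54 in cerebellum. Whole brain was lowest and did not overlap any region, and the regional arrays fell into the same 2 levels as those of Pcdh10, with olfactory bulb and striatum above cortex and cerebellum. Striatum exceeded cerebellum by 1.60-fold and cortex by 1.49-fold (adjusted p = 8.26e-05 and 0.00146), and olfactory bulb exceeded them by 1.43-fold and 1.33-fold (adjusted p = 0.000843 and 0.0130). The other probe of the same Pcdha6 transcript was above the reference in every group, and nearly as bright. It gave 1.20 in olfactory bulb, 1.13 in cerebellum, 0.85 in cortex and 0.58 in striatum, so that striatum was lowest and the order of the regions was not that of the first probe. Pcdha4 was higher than the reference in every group, from 0.26 in cortex to 0.90 in whole brain.

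The 22 beta genes were the largest group, and their ratios spread on both sides of the reference. The beta medians lay between -0.21 in cerebellum and -0.09 in whole brain. Called higher and lower were 9 and 9 in whole brain, 6 and 11 in olfactory bulb, 6 and 8 in striatum, 6 and 8 in cortex, and 8 and 12 in cerebellum. Higher in all 4 regions were Pcdhb2, Pcdhb4, Pcdhb15, Pcdhb16 and Pcdhb18, and lower in all 4 were Pcdhb3, Pcdhb7, Pcdhb10, Pcdhb11, Pcdhb12 and Pcdhb13. A second, dimmer Pcdhb16 probe was below the reference in every group (-0.61 to -0.29). With the mean of probes Pcdhb16 turned to -0.03 in olfactory bulb and -0.01 in striatum. Pcdhb15 had the highest beta ratio in whole brain, olfactory bulb, cortex and striatum, at 1.28 ± 0.10 in whole brain (SD, n = 4) and 0.69 to 1.02 in the regions, while its dimmer second probe was below the reference in every group (-0.69 to -0.34). Pcdhb12 was between -0.94 and -0.78 in the 5 groups. Pcdhb11 was not well above background on any sorted array of whole brain, olfactory bulb, cortex or striatum, so it was at least 1.25-fold, 1.21-fold, 1.19-fold and 1.27-fold below the reference there. Pcdhb8 was not well above background in the reference of olfactory bulb or in the sorted cells of cortex.

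Pcdhb2 was the beta gene with the widest regional range. The 4 whole brain arrays gave a log2 ratio of 0.86, 0.95, 0.61 and 1.26. It was 0.54, 0.45 and 0.51 in olfactory bulb, 0.28, 0.70 and 0.98 in striatum, 0.44, 0.30 and 0.28 in cortex, and 1.51, 1.1 and 1.47 in cerebellum. Every cerebellar array was above every other regional array, and the other 3 regions overlapped in part. Cerebellum exceeded cortex by 2.03-fold (SE 0.16 on the log2 scale, adjusted p = 0.000116), olfactory bulb by 1.81-fold (adjusted p = 0.000320) and striatum by 1.63-fold (adjusted p = 0.00189). Pcdhb17 went the other way, at -1.03 ± 0.56 in cerebellum (SD, n = 3) and -1.21 in whole brain against -0.47, -0.26 and -0.09 in olfactory bulb, cortex and striatum. In whole brain its sorted signal was well above background on 1 of 4 arrays, and with the scanner software's ratios the whole brain value was -3.54. Striatum exceeded cerebellum in Pcdhb17 by 1.92-fold (adjusted p = 0.000783).

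**Figure D3:**
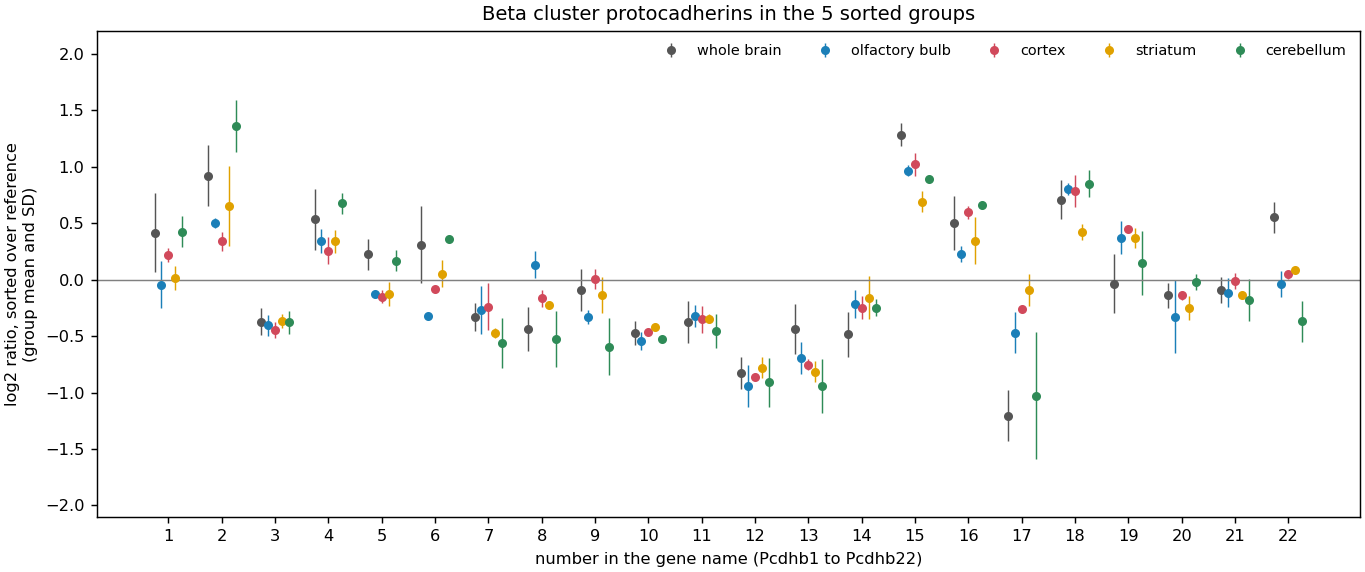
Group mean log2 ratio of sorted cells over reference with SD (bars) for the 22 beta cluster protocadherins, by the number in the gene name, in whole brain (n = 4) and the 4 regions (n = 3, or 2 for Pcdhb3 in cerebellum). The 5 groups lie close together for Pcdhb3, Pcdhb10 and Pcdhb12, and spread widest for Pcdhb2 and Pcdhb17.

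Of the 6 gamma genes, Pcdhga7 was the lowest. Whole brain arrays had it at -1.67, -1.72, -1.64 and -1.84 on the log2 scale. It was -1.54, -1.62 and -1.38 in olfactory bulb, -0.99, -1.11 and -1.14 in striatum, -1.41, -1.46 and -1.37 in cortex, and -1.23, -1.05 and -1.20 in cerebellum. Olfactory bulb and cortex overlapped, as did striatum and cerebellum, and the first pair was below the second on every array. Striatum exceeded olfactory bulb by 1.35-fold and cortex by 1.26-fold (adjusted p = 0.00152 and 0.0156). The other 2 bright probes of Pcdhga7 gave -1.78 to -0.89 over the 5 groups, and a dimmer probe gave -0.68 to 0.14. Pcdhga1 was lower than the reference in every group, from -0.64 in olfactory bulb to -0.16 in cerebellum, though its whole brain and cerebellar ratios turned to 0.32 and 0.09 with median centring. Pcdhga4 and Pcdhga9 were higher in every group, Pcdhgb4 in every group but striatum, and Pcdhga11 was 0.86 ± 0.12 in whole brain (SD, n = 4) and 0.09 to 0.26 in the regions. A second, dimmer Pcdhga4 probe gave -0.43 in whole brain, -0.20 in cerebellum, -0.005 in striatum, 0.01 in cortex and 0.11 in olfactory bulb.

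Between regions, calls are read against those of all genes on the array. The F test over the 4 regions called 40 of 62 genes, where 57.3% of all genes tested were called. Cerebellum had the highest mean ratio in 21 of these 40 and the lowest in 10, olfactory bulb the highest in 9 and the lowest in 11, striatum the highest in 6 and the lowest in 13, and cortex the highest in 4 and the lowest in 6. Over all genes this count was not made. All genes tested also leaned to cerebellum, with 22.8%, 22.8% and 15.2% called higher there than in striatum, olfactory bulb and cortex. Called lower there were 15.8%, 16.9% and 10.8%. By role, the F test called 9 of 11 type II cadherins, 1 of 5 type I, all 3 delta-1, 3 of 4 delta-2, all 3 alpha, 12 of 22 beta and 4 of 6 gamma genes. With a range of at least 2-fold between regions, 3 genes were called (Cdh9, Pcdha9 and Pcdhb2), against 3.78% of all genes. Leaving out cerebellar array 3 raised this number to 5.

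In the main fit, the pairs of regions with cerebellum held most of the calls between regions. Striatum against cerebellum called 31 genes, 9 higher and 22 lower in striatum, against 38.6% of all genes (15.8% higher and 22.8% lower), with a split of 11 to 13 under median centring. Olfactory bulb against cerebellum called 30, with 10 higher and 20 lower in olfactory bulb, against 39.7% (16.9% and 22.8%), with a split of 12 to 14 under median centring. Cortex against cerebellum called 20, with 6 higher and 14 lower in cortex, against 26% of all genes (10.8% and 15.2%), with 5 to 5 under median centring. Genes higher in cerebellum than in each of the other 3 regions included Cdh4, Cdh9, Cdh18, Cdh24, Pcdh12, Pcdh15, Pcdha9, Pcdhb2, Pcdhb4 and Pcdhb5, and genes lower there than in each were Pcdh9, Pcdhb17 and Pcdhb22. Other probes of Cdh24, Pcdha9 and Pcdhb5 did not have their highest regional mean in cerebellum. Among 7 markers of the cerebellar granule cell lineage, a glutamatergic lineage, 6 were lower in striatum than in cerebellum. In cortex 5 were lower than in cerebellum, and in olfactory bulb 5 were lower and 1 higher. The list medians in these pairs were -1.37, -1.03 and -1.28. Of 8 GABAergic markers, 6 were higher and 1 lower in each of the 3 regions than in cerebellum. The part of both lists in the cerebellar differences was not tested. The difference was larger in the sorted than in the reference channel for 31 of the 31 genes called between striatum and cerebellum, 26 of 30 between olfactory bulb and cerebellum and 16 of 20 between cortex and cerebellum. The exceptions included Cdh9, Pcdh12 and Pcdhb17, named above. For cortex minus cerebellum, Pcdh12 had 0.06 in the sorted and 0.42 in the reference channel, Cdh9 -0.21 and 0.34, and Pcdhb17 0.34 and -0.42. For olfactory bulb minus cerebellum, Pcdhb17 had 0.21 and -0.35, and its arrays overlapped.

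The pairs without cerebellum called fewer genes in the main fit. Over all genes, however, olfactory bulb against striatum (27.4%) exceeded cortex against cerebellum (26%). In the family this order also held with the scanner software's ratios (splits of 14 to 15 against 5 to 10). Under median centring it held too (10 to 6 against 5 to 5). Olfactory bulb against striatum called 17 genes, 10 higher and 7 lower in olfactory bulb, against 27.4% of all genes (14.2% higher and 13.2% lower). With the scanner software's own ratios this became 14 and 15, and without striatal array 2, 11 genes were called. Olfactory bulb against cortex called 12, with 6 higher and 6 lower, against 16.3% (8.24% and 8.1%), and 8 to 4 under median centring. Cortex against striatum called 10, with 6 higher and 4 lower in cortex, against 18.6% (8.82% and 9.81%), and the split was 1 to 4 under median centring, 6 to 7 with the scanner software's ratios and 11 to 4 with arrays scaled to each other. Leaving out 1 array brought this last count to 3 without cortical array 1, 4 without cortical array 3, and 5 without striatal array 1 or 2. In cortex against cerebellum, 12 genes were called without cortical array 1 or 2. Genes higher in olfactory bulb than in striatum included Cdh6, Cdh11, Cdh20, Cdh22, Cdh23, Pcdh9 and Pcdhga9, and those lower included Cdh9, Pcdh8, Pcdha9 and Pcdhga7. The difference lay mostly in the reference channel for Cdh20 (0.18 sorted and -0.52 reference) and Cdh9 (-0.17 and 0.50). For Cdh11, Cdh23, Pcdh9, Pcdha9 and Pcdhga7, at least 1 other probe went the other way. On such a probe Cdh11 was at -1.60 in olfactory bulb and -1.02 in striatum, and Pcdha9 at 0.39 and -0.01.

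Markers of other cell types also differed in these pairs. Of 7 microglial markers, 5 were lower in olfactory bulb than in striatum and 4 lower in olfactory bulb than in cortex. Of 7 oligodendrocyte lineage markers, 4 were lower and 1 higher in olfactory bulb than in striatum, and 4 were lower in cortex than in striatum. Of 7 markers of astrocytes and radial glia, 4 were lower in cortex than in striatum, and 3 were higher in olfactory bulb than in cortex. Their part in the differences was not tested.

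**Figure D4:**
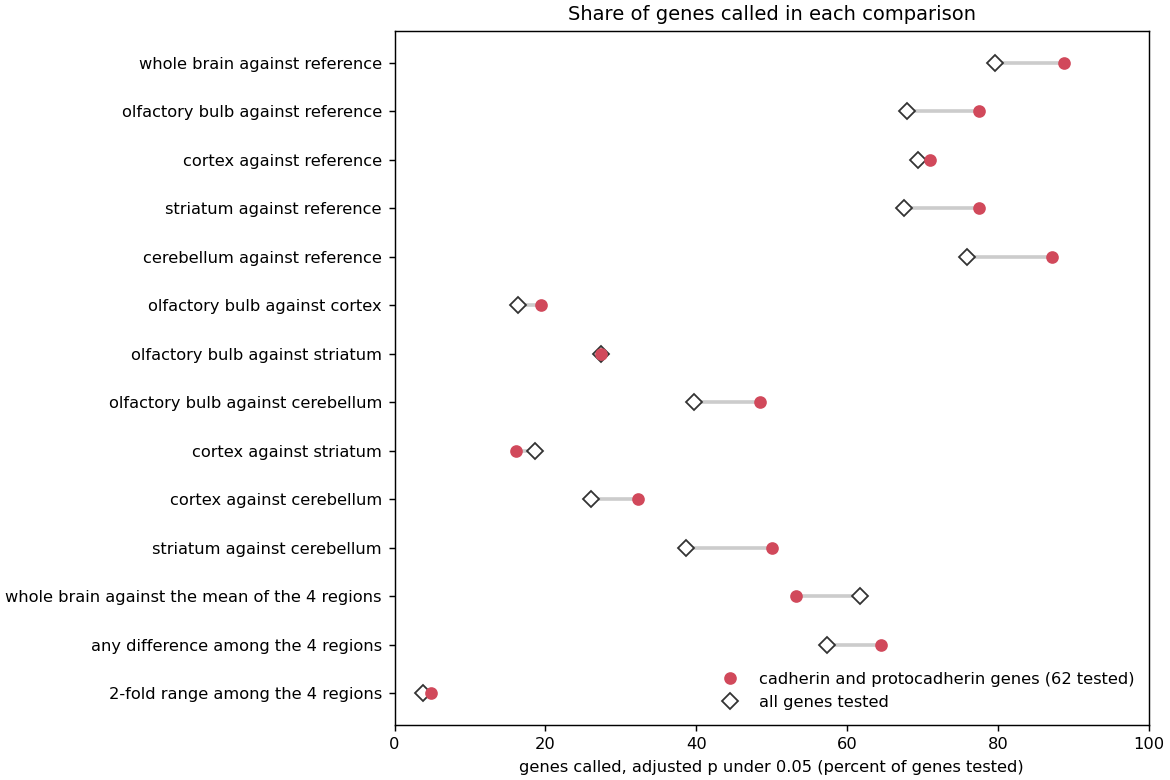
Percent of genes called at an adjusted p under 0.05 in each comparison, for the 62 cadherin and protocadherin genes tested (filled circles) and for all 27841 genes tested (open diamonds). The circles follow the diamonds, with 31 of 62 against 38.6% between striatum and cerebellum and 10 of 62 against 18.6% between cortex and striatum.

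Set against the average of the 4 regions, whole brain called 33 genes, 18 higher and 15 lower in whole brain, where 61.7% of all genes were called (31.1% higher and 30.6% lower). The split was 24 to 10 under median centring and 23 to 12 with the scanner software's ratios. Cdh2 and Pcdh8 alone of the 62 differed by at least 2-fold, where 9.85% of all genes did, and both were lower in whole brain. Pcdha6 (-0.98), Cdh20 (-0.84) and Cdh6 (-0.66) were also lower there, and Pcdh9 (0.88), Pcdhga11 (0.70), Pcdhb22 (0.62) and Cdh15 (0.54) were higher. The second brightest probes of Cdh2, Pcdh8 and Cdh20 were instead higher in whole brain than in any region. That of Pcdha6 gave 0.88, within its regional range of 0.58 to 1.20. That of Pcdh9 was lower in whole brain (-3.02) than in the regions (-1.76 to -0.78), while the remaining Pcdh9 probes were highest in whole brain. Since the whole brain arrays were scanned on their own day, this comparison cannot be told apart from the scan.

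Probes of 1 gene often disagreed in sign. Counting genes with at least 2 probes whose sorted signal was well above background on all 16 arrays, 10 of 16 genes of the family (62.5%) had probes on opposite sides of the reference in the mean of the regions, where 2596 of 6134 genes on the array (42.3%) did. A gap of at least 2-fold between probes was seen in 8 of the 16 (50%) and in 22.2% of the 6134. The widest gaps were those of Pcdha6, Pcdh19, Pcdh10 and Cdh11. With the mean of all probes in place of the brightest, Cdh11 turned from 0.90 to -0.54 in olfactory bulb, Pcdh9 from 0.89 to -0.50 in whole brain and from 0.37 to -0.43 in olfactory bulb, Pcdha9 from 0.75 to -0.28 in whole brain, and Pcdh10 from -1.22 to 0.07 in whole brain. A statement on such a gene is therefore a statement on the probe named. Single-probe genes, 37 of the 63, had no such check, and these include Cdh9, Cdh10, Pcdh21 and Pcdhb2.

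**Figure D5:**
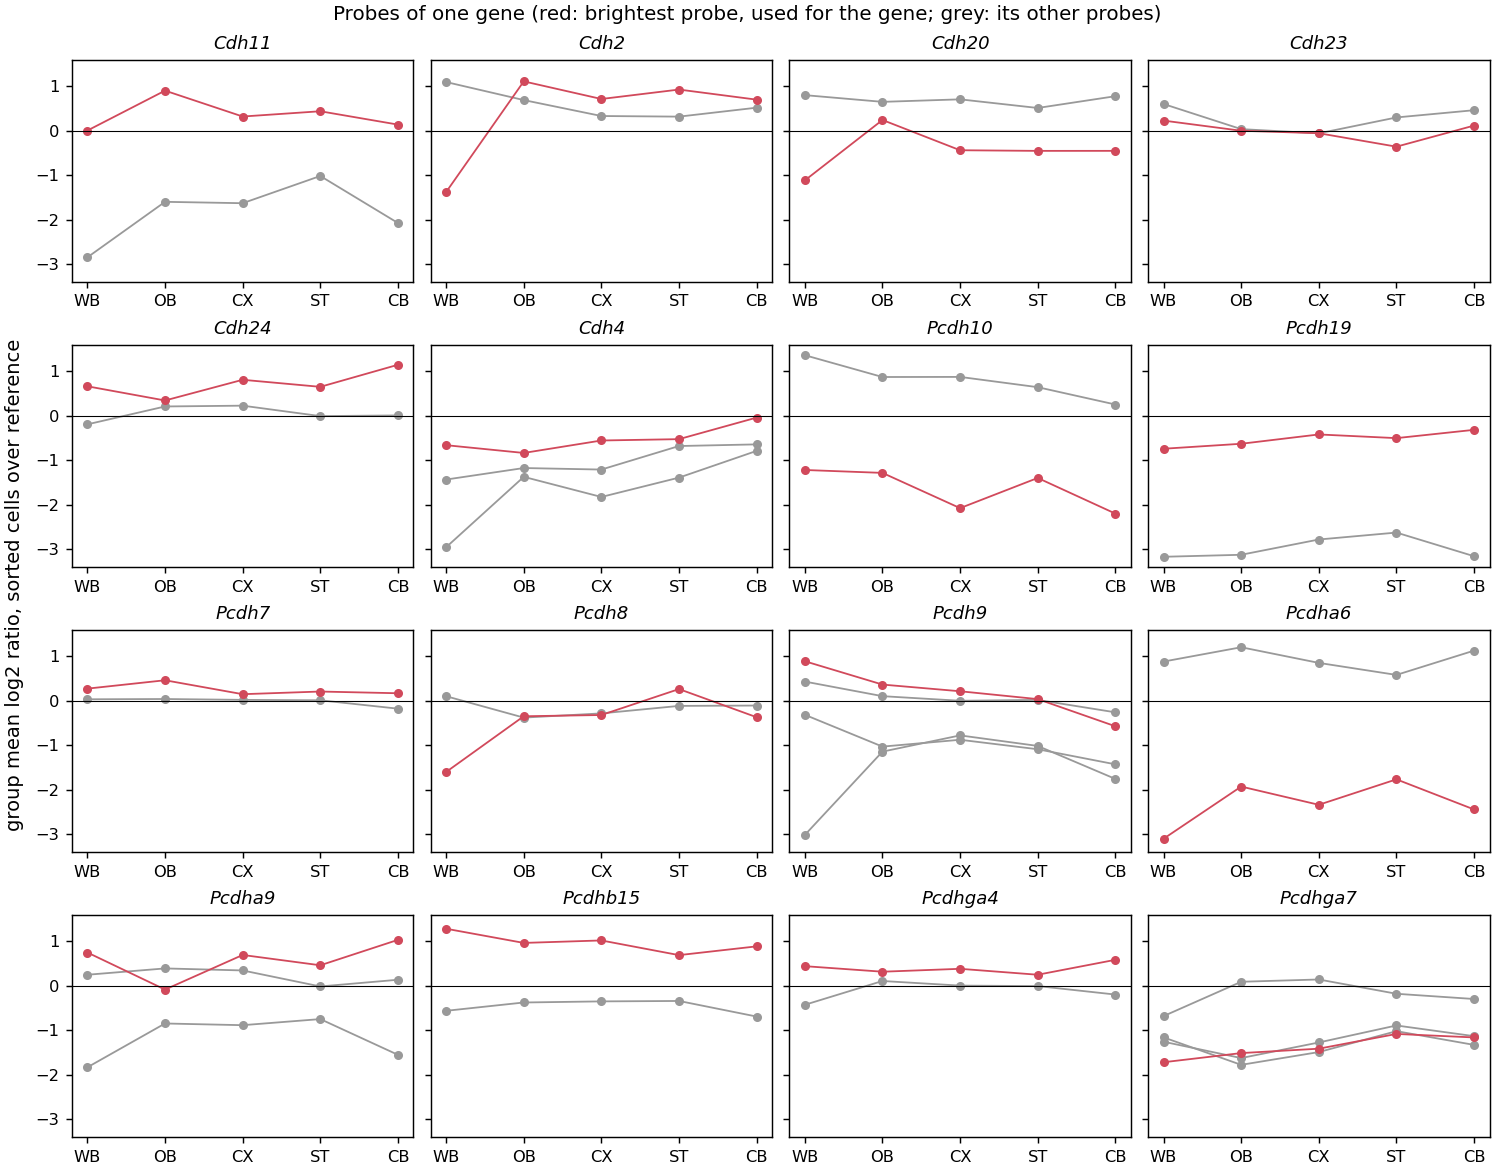
Group mean log2 ratio of sorted cells over reference for each probe of the 16 genes with at least 2 probes whose sorted signal was well above background on all arrays, in whole brain (WB), olfactory bulb (OB), cortex (CX), striatum (ST) and cerebellum (CB); red marks the brightest probe, which stands for the gene elsewhere. The probes of Pcdha6 lie at -3.10 and 0.88 in whole brain, while those of Cdh4 share one side of the reference.

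Partners and relatives of these genes were measured on the same arrays. Their counts stand beside 36.1% to 44.9% of all genes tested called higher than the reference in the 5 groups, and 31.2% to 34.7% lower. Of 13 catenins and linkers, which tie classical cadherins to actin, 6 were higher and 7 lower than the reference in whole brain, and 6 to 7 were higher and 4 lower in each region. Beta-catenin, named Catnb on the array, was -2.03 in whole brain, 0.11 in olfactory bulb, -0.49 in striatum, -0.42 in cortex and -1.25 in cerebellum, and plakoglobin (Jup) was higher in every group (0.79 to 1.5). Delta-catenin 2 (Catnd2) was lower in every group (-1.76 to -1.35). Of 19 members of the superfamily outside the 62, 9 were higher and 7 lower in whole brain, with 6 and 6 in olfactory bulb, 7 and 7 in striatum, 8 and 7 in cortex and 12 and 6 in cerebellum. Clstn1, a calsyntenin of axonal transport, was lower in every group (-1.92 to -0.51), while Clstn3, a synaptic organiser, was higher (0.80 to 1.56), and Celsr3, a planar polarity cadherin needed for axon tracts, was higher in every group (0.62 to 0.88).

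Among 12 genes of cadherin shedding and protocadherin signalling, 2 were higher and 8 lower than the reference in whole brain, 3 and 6 in olfactory bulb, 3 and 7 in striatum, 3 and 7 in cortex and 4 and 4 in cerebellum. The WAVE complex genes Wasf1 (-2.49 to -0.86) and Cyfip2 (-2.47 to -1.02) were lower in every group. Among 13 regulators of the clustered promoters, 3 were higher and 6 lower in whole brain, 5 and 2 in olfactory bulb, 8 and 2 in striatum, 6 and 3 in cortex and 5 and 4 in cerebellum. For both lists, the shares over all genes were again 36.1% to 44.9% higher and 31.2% to 34.7% lower. Ctcf, whose product loops these promoters to their enhancers, was -2.0 in whole brain and 0.40 to 0.94 in the regions. Wiz was -1.09 in cerebellum and between -0.19 and 0.27 in the other regions. The F test over regions called 12 of the 13 catenins and linkers, 13 of the 19 relatives, 6 of the 12 shedding and signalling genes and 8 of the 13 regulators, beside the 57.3% of all genes.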

How the data were processed

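Sorted GABAergic cells of newborn mice were compared with a total brain reference on 16 Agilent arrays of 2 colours. The deposited scanner files hold spot intensity values in the 2 channels, read with Agilent Feature Extraction 8.1.1.1 per the submitters' processing notes. The authors' deposited value table is in log10 ratios and equals the scanner software's log10 ratio within 0.005 for 43790 features, with column medians of 0 to 0.0334. The labels name Cy5 for the sorted cells and Cy3 for the reference, although they call Cy3 red, so the direction of every ratio rests on the dye names.

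Here mean and background intensities were corrected with normexp (offset 50) and normalised by loess within each array in limma 3.58.1 (R 4.3.3). Control spots and spots with an outlier flag were left out, which removed 4 values of the family. Spots of 1 probe were averaged, and the brightest probe stood for a gene. The filter kept a gene whose sorted signal was well above background on 3 or more arrays, or whose reference signal was so on 8 or more. One model held the 5 group means, and p-values were adjusted by Benjamini-Hochberg over 27841 genes, with a threshold of 0.05. The number of arrays limits the precision. A fold given as "at least" sets the brighter group against the higher of the dim signal and the lowest signal well above background on each array, per channel. Without dye swaps, such a fold and every comparison with the reference are open to dye bias.

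The genes and lists were chosen with earlier results of these data known. Values for every array are given for genes called among regions with a range of at least 2-fold, or called at least 2-fold from the reference in one direction in all 4 regions, and for Cdh2 and Pcdh8, which were chosen after their values were seen. Alternatives were the scanner software's ratio, median centring, scaling between arrays, the filter, the mean of probes, the sorted channel alone, the regional arrays alone, the replicate block and leaving out each array. The fits were tested on simulated data. Promoters are from RefSeq (GRCm38.p6).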

Additional observations from a re-analysis of the deposited data

Results flagged for a closer look

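Among the 61 genes with a value on all 4 whole brain arrays, 2 held an array far from the others, and chance alone gives this in about 1 in 20 such groups. For Pcdh8, array 1 was highest at -1.36, with the next array at -1.66, a gap of 0.834 of the range. For Pcdhb19, array 4 was lowest at -0.42, with the next at 0.07, a gap of 0.925 of the range.

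Other genes were called on opposite sides of the reference in different groups, with the difference itself tested by limma's moderated test with Benjamini-Hochberg adjustment. Whole brain lay below the mean of the 4 regions in Cdh2 (-2.24 on the log2 scale, adjusted p = 6.25e-12) and above it in Cdh15 (0.54, adjusted p = 3.26e-07), and scan day cannot be told apart from either. Olfactory bulb was above cortex, striatum and cerebellum in Cdh20, by 0.68, 0.69 and 0.69 (adjusted p = 0.00122, 0.000461 and 0.000243), while its second probe was above the reference everywhere, with olfactory bulb (0.65) below cortex (0.71) and cerebellum (0.78). Of these Cdh20 differences, 0.34, 0.18 and 0.38 lay in the sorted channel. In the reference channel, which holds the same cDNA on all arrays, they were -0.34, -0.52 and -0.32. Striatum was above olfactory bulb, cortex and cerebellum in Pcdh8, by 0.61, 0.58 and 0.63 (adjusted p = 0.000633, 0.00210 and 0.000293), while its other probe gave -0.11 in striatum and in cerebellum. Cerebellum was below olfactory bulb and cortex in Pcdh9, by 0.94 and 0.79 (adjusted p = 8.74e-07 and 1.23e-05). Cerebellum was above striatum in Cdh18 and Pcdh15, by 0.53 and 0.80 (adjusted p = 0.000850 and 0.000136), above cortex in Pcdhb5, by 0.32 (adjusted p = 0.0166; its second probe gave -0.12 in cerebellum and 0.12 in cortex), and above olfactory bulb in Pcdhb6, by 0.68 (adjusted p = 0.000578). With median centring, the ratios of Cdh18 in striatum, Pcdhb5 in cortex and Pcdhb6 in olfactory bulb turned to 0.09, 0.11 and 0.15.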

How the results depend on the processing

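Of the family's 194 calls of a region against the reference, 187 were kept with the scanner software's ratios, 194 with arrays scaled to each other, 167 with median centring and 166 with the mean of probes. Of its 120 calls between regions, 98, 98, 73 and 89 were kept under the same settings, and 71 with the sorted channel alone. Counts that moved by over 1.5 times were those of olfactory bulb against striatum (29 with the scanner software's ratios), olfactory bulb against cortex (6 with the mean of probes), cortex against striatum (5 with median centring, 6 with the mean of probes), cortex against cerebellum (10 with median centring, 13 with the sorted channel alone), striatum against cerebellum (16 with the sorted channel alone) and the 2-fold range among regions (10 with the scanner software's ratios, 5 with median centring, 7 with the sorted channel alone). The cause was not tested. Leaving out 1 array gave 11 to 18 calls for olfactory bulb against striatum, 3 to 12 for cortex against striatum, 12 to 23 for cortex against cerebellum and 2 to 5 for the 2-fold range. Whether replicate numbers pair the regional arrays could not be told with 3 arrays per region. Of 18 pairs with 1 number, 5 correlated above 0.1 (-0.11 to 0.23). Of 36 pairs with different numbers, 5 did so (-0.24 to 0.24). With the replicate number as a block, 33 genes were called between olfactory bulb and cerebellum, 34 between striatum and cerebellum, and 40 by the F test. A block for slide or scan day was not run, since each slide held 1 array and scan day separates whole brain from the regions. Dim signal limits Cdh17, Pcdh15, Pcdhb8 and Pcdhb11.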
